A study of Rattus norvegicus with 25 samples.

Results

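Oxidative phosphorylation genes of the rat striatum were followed through 3 treatment arms, with the genes of the nuclear and of the mitochondrial genome set side by side. Members were taken from the table of raw counts by name: the Nduf, Uqcr, Cox4 to Cox8, Atp5 and Sdha to Sdhd symbols of the nucleus, and the Mt-nd, Mt-co, Mt-atp and Mt-cyb symbols of mitochondrial DNA. A summed count of at least 100 over the 25 libraries was also required. Of 28909 gene names in the table, 108 carried such a symbol and 101 were members, 88 of them nuclear and 13 mitochondrially encoded. Members were thus chosen by name and selected on their summed count, which reflects the overall level of a gene and no comparison of arms; the summed counts are given as a description and were not tested. Just inside the minimum lay Cox6a2 with 134 counts and Cox8b with 138, the heart and muscle isoforms of 2 cytochrome c oxidase subunits. Just outside it lay Ndufs6 with 18 counts and Cox7b2 with 1, while Atp5pb, Cox7a1, Cox6c-ps1, Cox8c and Ndufa1 were listed at 0.

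The animals were 25 female Sprague Dawley rats lesioned with 6-OHDA, a toxin that destroys dopamine neurons and is used to model Parkinson's disease. All 25 received levodopa at 6 mg/kg each day, given as levodopa/benserazide according to the series title: 5 rats had levodopa without trapidil, 10 had trapidil at 7.5 mg/kg and 10 had trapidil at 15 mg/kg, in each case given at 2 doses a day. Treatment lasted 14 days, and striatum of the lesioned side was collected on day 15 at a time tied to 1 hour of dosing. The controls therefore also carry the lesion and levodopa, no arm is free of either, and the age of the rats was not given in the sources used here. Polyadenylated RNA was sequenced, with library totals of 10838513 to 20532290 counts. Trapidil, a vasodilator and antiplatelet drug, is also known to block platelet-derived growth factor.

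Oxidative phosphorylation passes electrons from NADH and succinate along complexes I to IV of the inner mitochondrial membrane to oxygen, and ATP synthase (complex V) uses the resulting proton gradient to make ATP. Complex II is made wholly of nuclear proteins, while the other complexes join nuclear subunits with subunits translated inside mitochondria from 13 genes of mitochondrial DNA. The mitochondrial messages are cut from long transcripts made by a dedicated RNA polymerase, so their supply is set apart from the nuclear promoters that drive the other subunits. In the striatum, neurons with high energy demand hold much of this machinery, and complex I is the target of toxins that model Parkinson's disease.

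Sequence around the start, before and after it, differed between the nuclear members. Of 88 nuclear members, 86 matched a RefSeq gene by symbol and 2 by synonym, and 77 had an entry in the RefSeq promoter table of the GRCr8 build, which covers 250 bases before to 50 after each start. The letters GCGCA and GCGC with any 1 base between them, the core recognised by nuclear respiratory factor 1 (NRF1), an activator of respiratory genes, were found on either strand in 15 of the 77 (19.5%). The same letters were in 4.71% of all 27457 promoters in that table and in 9.42% of the 10460 promoters of tested genes. The YY1 core AAGATGG was in 24.7% of the members' promoters against 8.06% of those of tested genes, and the ETS core CCGGAAG in 27.3% against 16.3%. By complex, the NRF1 core was in 5 of 16 promoters of complex V, 6 of 24 of complex I accessory subunits and 0 of 14 of complex IV. A match describes these letters in this window and is not a binding site, and no match says nothing of the factor. The 100 bases before the start are shown for 4 members picked after their values were seen: Ndufa11, with the smallest p of the complex I accessory subunits against levodopa; Sdha and Atp5mc2, whose arm means were close; and Cox7a2l, with the smallest p of all members at 15 mg/kg. Capitals mark the NRF1 core, and a run of more than 10 capitals is overlapping copies of it. The stretches are chr9:1637514-1637613 (plus strand), chr1:30764453-30764552 (plus), chr7:135678219-135678318 (minus) and chr6:16936474-16936573 (plus), in that order, in GRCr8.
Ndufa11: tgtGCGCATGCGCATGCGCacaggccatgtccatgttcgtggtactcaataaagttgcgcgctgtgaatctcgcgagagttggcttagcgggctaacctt
Sdha: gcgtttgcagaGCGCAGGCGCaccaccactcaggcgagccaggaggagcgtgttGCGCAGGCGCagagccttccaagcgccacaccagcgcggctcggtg
Atp5mc2: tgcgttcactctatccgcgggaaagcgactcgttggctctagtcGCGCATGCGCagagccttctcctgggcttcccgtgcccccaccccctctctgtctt
Cox7a2l: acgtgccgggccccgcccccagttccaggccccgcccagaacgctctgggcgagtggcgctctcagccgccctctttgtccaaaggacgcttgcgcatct

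The 2 genomes made up very different shares of the counts and varied by very different amounts between libraries. Nuclear members took 1.203 ± 0.0616% (SD, n = 5) of the counts with levodopa, 1.15 ± 0.0557% (SD, n = 10) with trapidil at 7.5 mg/kg and 1.17 ± 0.0373% (SD, n = 10) at 15 mg/kg. The 13 mitochondrially encoded genes had about the same mean share in the arms but far from the same spread. In the levodopa arm their share was 7.62, 17.3, 10.1, 10.46 and 12.9% in replicates 1 to 5, so that the highest library had 2.27 times the lowest, against 1.13 times for the nuclear share. Replicate 2 was the high library and replicate 1 the low one, and the range of this arm enclosed every library of both trapidil arms. At 7.5 mg/kg the share ran from 8.43% in replicate 1 through a median of 12.2% to 14.9%, and at 15 mg/kg from 11.2% through 12% to 13.5%. The ratio of mitochondrially encoded to nuclear counts was 9.71 ± 2.91 (SD, n = 5), 10.6 ± 1.61 (SD, n = 10) and 10.4 ± 0.761 (SD, n = 10) in the same order. The nuclear share is taken of all counts, so a high mitochondrial share lowers it. Of the counts outside mitochondrial DNA, the highest levodopa library had 1.2 times the nuclear share of the lowest. On that scale levodopa replicate 2 was the highest of all 25 libraries, at 1.508%.

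**Figure D1:**
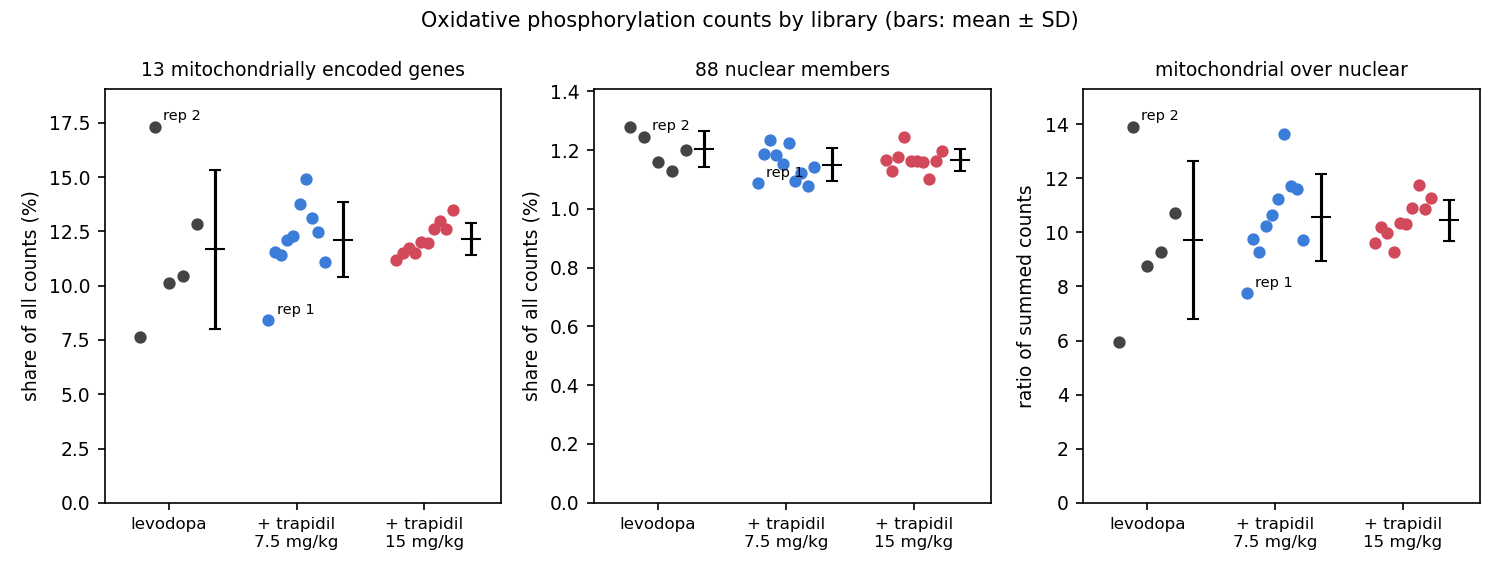
Share of all counts (%) from the 13 mitochondrially encoded genes and from the 88 nuclear members, and the ratio of the 2 sums, with each point 1 library in replicate order within its arm and bars the mean ± SD. Levodopa replicate 2 is the highest point of the left panel at 17.3%, and the 15 mg/kg libraries sit closest together, between 11.2 and 13.5%.

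Levodopa replicate 2 stood apart in its cell type markers as well, and values without it are given beside the sets and the main members below. Its summed markers of striatal spiny projection neurons were 8904 CPM (counts scaled to a common library total), against a median of 14180 CPM in its arm and a lowest value of 11770 CPM in the trapidil arms. None of the 9 genes of that list was at 0 over all libraries, and no library had less than that sum, so the markers of the labelled tissue were present throughout. In the same library the 8 oligodendrocyte markers summed to 18520 CPM (10110 to 12970 CPM in the other levodopa libraries), the 5 astrocyte markers to 5040 CPM, the 4 endothelial markers in the table to 334.4 CPM and the 5 choroid plexus markers to 27.95 CPM, each the highest of all 25 libraries. Of these lists, the endothelial marker Cldn5 and the choroid plexus marker Otx2 were at 0 in every library. The 7.5 mg/kg replicate 1 also differed, with the lowest mitochondrial share of its arm and the highest sums of its arm for oligodendrocyte (15350 CPM), astrocyte (3479 CPM), microglial (365.1 CPM) and cortical neuron (58.31 CPM) markers. It also had the lowest total of all 25 libraries (10838513 counts) and the highest red blood cell marker sum of all 25 (1116 CPM). Over the arms, the oligodendrocyte sum ran from 10110 to 18520 CPM with levodopa, 6939 to 15350 CPM at 7.5 mg/kg and 6117 to 13060 CPM at 15 mg/kg, and the log2 fold changes at 15 mg/kg were negative for 8 of its 8 genes with a median of -0.61. Markers called lower at that dose, where 1% of all tested genes were, included Opalin, Ermn and Cnp of oligodendrocytes, the endothelial Slco1a4, the choroid plexus gene Ttr and Slc17a6, of pallidal, thalamic and hypothalamic neurons. Ttr was the only negative gene of the 4 tested choroid plexus markers, whose median was 0.86. With levodopa Ttr had 4.863 ± 10.35 CPM and Slc17a6 2.648 ± 4.671 CPM (SD, n = 5), so both SDs exceeded the means. Levodopa replicate 2 had the highest sum of its arm for both lists (27.95 and 40.65 CPM). What part tissue makeup has in the values of the members was not tested, and in bulk tissue fewer cells of a type and less RNA per cell cannot be told apart.

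No mitochondrially encoded gene was called different between arms, and their levels moved as a block from library to library. Each rat gave 1 library, so differences between animals and between library preparations cannot be told apart. Mt-co1, the catalytic subunit of cytochrome c oxidase and the member with the highest summed count (14542282), had 22710, 44640, 28370, 28010 and 35050 CPM in levodopa replicates 1 to 5. Its values were 30300, 33560 and 41270 CPM (lowest, median, highest) at 7.5 mg/kg and 30930, 33980 and 38530 CPM at 15 mg/kg. Both trapidil arms thus lay wholly within the levodopa range. The log2 fold change of Mt-co1 was 0.12 ± 0.10 (SE) at 7.5 mg/kg and 0.094 ± 0.10 (SE) at 15 mg/kg, with adjusted p = 0.656 and 0.650 (edgeR's quasi-likelihood test, Benjamini-Hochberg adjusted over 14142 genes, as for every adjusted p of this text unless another tool is named). No mitochondrially encoded gene had a smaller p against levodopa at either dose.

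The same libraries were high or low for nearly the whole mitochondrial set. Levodopa replicate 2 was the highest of its arm for 13 of 13 genes and replicate 1 the lowest for 13 of 13. In the 7.5 mg/kg arm replicate 1 was the lowest for 12 of 13 and replicate 7 the highest for 10, while at 15 mg/kg the high place was held most often by replicate 10, for 8 genes. Over the levodopa arm the SD of log2 CPM had a median of 0.53 for these 13 genes, 0.19 for 86 nuclear members and 0.22 for all 14142 tested genes. At 7.5 mg/kg the medians were 0.29, 0.14 and 0.19, and at 15 mg/kg 0.12, 0.089 and 0.15. The nuclear median was thus below that of all genes in each arm, and the mitochondrial one below it at 15 mg/kg but not in the other arms. These groups of genes were not matched for level, on which the SD of log2 CPM also depends.

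Within the block, genes differed in how far they followed it. Mt-co1 had the smallest SD of log2 CPM of the 13 genes in the levodopa arm (0.37) and at 7.5 mg/kg (0.13). Mt-nd6, the complex I subunit encoded on the opposite DNA strand from the other 12, had the largest with levodopa (0.72): 717.0, 2767, 1135, 1166 and 1577 CPM in replicates 1 to 5. The share of Mt-co1 in the mitochondrial counts was lowest in the levodopa library where those counts were most abundant, with 24.3% in levodopa replicate 2 against 30.8% in replicate 1, and it was 38.5% in the 7.5 mg/kg replicate 1. Mt-nd6 made up 1.502% of mitochondrial counts in levodopa replicate 2 and 0.972% in replicate 1. Mt-nd3, another complex I subunit, spread most at 7.5 mg/kg, from 975.7 CPM in replicate 1 to 4020 CPM, and had the largest SD at 15 mg/kg (0.20). Genes that overlap on mitochondrial DNA (Mt-atp8 with Mt-atp6, Mt-nd4l with Mt-nd4) and Mt-nd6, opposite the long transcript of the other strand, have counts that depend on strand and overlap settings not given in the sources used here.

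**Figure D2:**
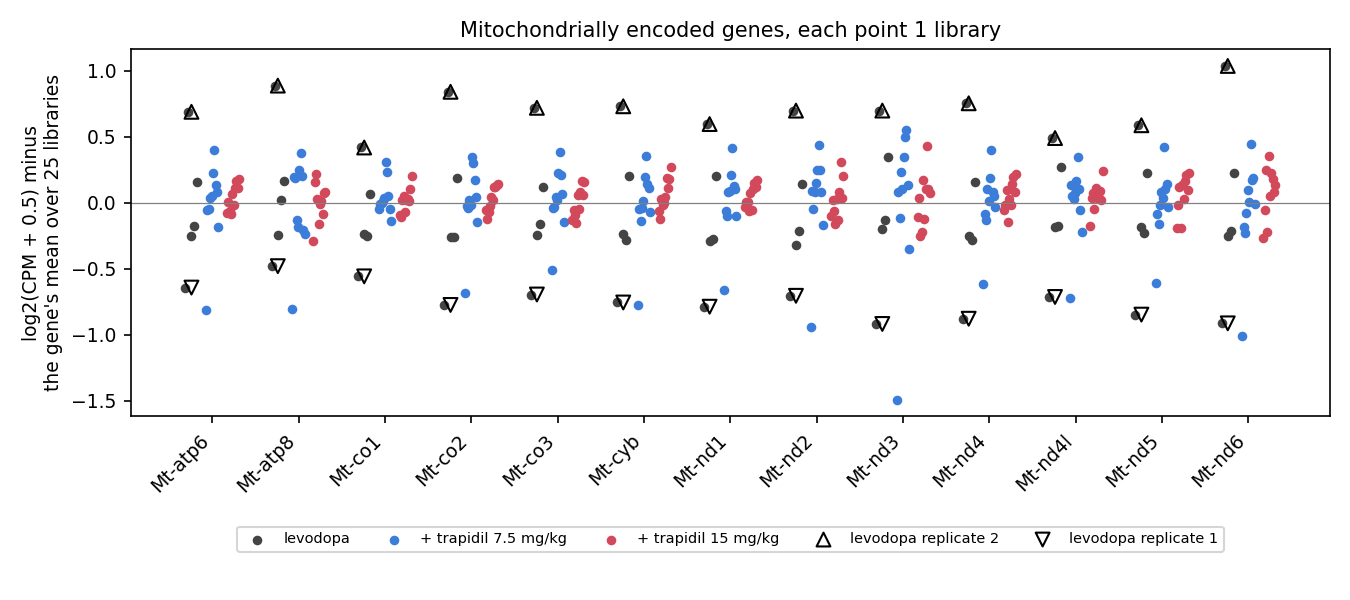
For each mitochondrially encoded gene, log2(CPM + 0.5) of every library minus the gene's mean over 25 libraries, by arm; triangles mark levodopa replicates 2 (up) and 1 (down). Replicate 2 is the highest levodopa library and replicate 1 the lowest for 13 of 13 genes, and the 15 mg/kg libraries lie closest to 0.

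Of the 7 Mt-nd genes, which encode the proton-pumping membrane core of complex I, log2 fold changes at 7.5 mg/kg ran from -0.14 (Mt-nd6) to 0.065 (Mt-nd1). Mt-nd1 had 6389, 16650, 9019, 9125 and 12650 CPM in the 5 levodopa libraries, medians of 11670 and 11340 CPM at 7.5 and 15 mg/kg, and log2 fold changes of 0.065 ± 0.15 and 0.084 ± 0.15 (SE). Mt-cyb, the cytochrome b of complex III, had medians of 11210 CPM with levodopa, then 13060 and 13520 CPM at the rising doses of trapidil, yet means of 13390, 13190 and 13810 CPM, since replicate 2 alone raised the levodopa mean with 21880 CPM. The ATP synthase subunit Mt-atp8 had the lowest fold change at both doses, -0.15 ± 0.16 and -0.14 ± 0.16 (SE; adjusted p = 0.736 and 0.683), which became 0.12 and 0.13 without levodopa replicate 2. At the lower dose 5 of 13 log2 fold changes were negative with a median of 0.015, and at the higher dose 5 of 13 with a median of 0.030. The standard errors were wide, with medians of 0.157 and 0.158 against 0.0761 and 0.0760 for nuclear members. For 13 of 13 genes at each dose the 95% confidence interval lay within a 1.5-fold change in either direction.

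Which levodopa libraries were counted set the sign of this median. Without levodopa replicate 2 it was 0.24 at 7.5 mg/kg and 0.27 at 15 mg/kg, and 0 of 13 genes had a negative value at either dose. At an unadjusted p below 0.05, 4 of 13 were then higher at 7.5 mg/kg (3.42% of all genes tested in that fit) and 4 of 13 at 15 mg/kg (6.2%), with a lowest adjusted p of 0.450 and 0.207. Without the 7.5 mg/kg replicate 1 as well, the medians were 0.30 and 0.27, and 12 of 13 (5.41% of all genes) and 10 of 13 (7.55%) were higher at an unadjusted p below 0.05, with a lowest adjusted p of 0.206 and 0.134. These genes share libraries and move together, so such counts are not independent. Without levodopa replicate 1 it was -0.14 and -0.10, with 12 of 13 and 13 of 13 genes negative. No mitochondrially encoded gene was called by edgeR in any of these fits. Limma-voom, which lowers the weight of aberrant libraries, gave medians of 0.22 and 0.21, with 5 and 4 of 13 higher at an unadjusted p below 0.05 (8.2% and 10% of all genes) and 0 called. The replicate block turned both medians negative, to -0.053 and -0.013.

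No nuclear member was called at either dose, and most had fold changes slightly below 0. Tested genes are those with enough counts by edgeR's filterByExpr, which kept 86 of the 88 nuclear members (all but Cox6a2 and Cox8b) and 13 of 13 mitochondrial ones. A gene is called at an adjusted p below 0.05: at 7.5 mg/kg 0 of 86 nuclear members were called, where 0.0283% of all tested genes were, and at 15 mg/kg 0 of 86, where 1.31% were (0.304% higher). At an adjusted p below 0.10, 1 of 86 was called at 15 mg/kg, Cox7a2l, where 6.1% of all tested genes were. At an unadjusted p below 0.05, 14 of 86 were lower at 7.5 mg/kg (16.3%, against 6.64% of all tested genes) and 0 were higher (5.02%). At 15 mg/kg 5 of 86 were lower (5.81%, against 11.2%) and 0 higher (8.26%). DESeq2 called 0 of 86 nuclear members at 7.5 mg/kg, where it called 0.375% of all tested genes, and 1 of 86 at 15 mg/kg, where it called 4.63%. The median log2 fold change was -0.068 at 7.5 mg/kg with 60 of 86 negative (69.8%, against 48.9% of all tested genes), and -0.054 at 15 mg/kg with 61 of 86 negative (70.9%, against 49.8%). For all tested genes the medians were 0.0037 and 0.00068.

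Without levodopa replicate 2 this lean was smaller at 7.5 mg/kg and gone at 15 mg/kg. The nuclear median was then -0.024 at 7.5 mg/kg with 54 of 86 negative (62.8%, against 48% of all genes tested in that fit), and 0.0078 at 15 mg/kg with 38 of 86 negative (44.2%, against 49.2%). At an unadjusted p below 0.05, 2 members were lower (3.18% of all genes) and 1 higher (3.42%) at 7.5 mg/kg, and 1 was lower (6.53%) and 0 higher (6.2%) at 15 mg/kg. With limma-voom 60 of 86 were negative at 7.5 mg/kg and 50 of 86 at 15 mg/kg, with medians of -0.038 and -0.0078. Without both that library and the 7.5 mg/kg replicate 1, 47 of 86 were negative at 7.5 mg/kg, with a median of -0.0076. Under RLE scaling the medians at the 2 doses were -0.069 and -0.054, and with scaling factors taken without the mitochondrially encoded genes -0.067 and -0.052. Both comparisons use the same 5 levodopa libraries, so the likeness of the 2 doses is not independent support for either.

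**Figure D3:**
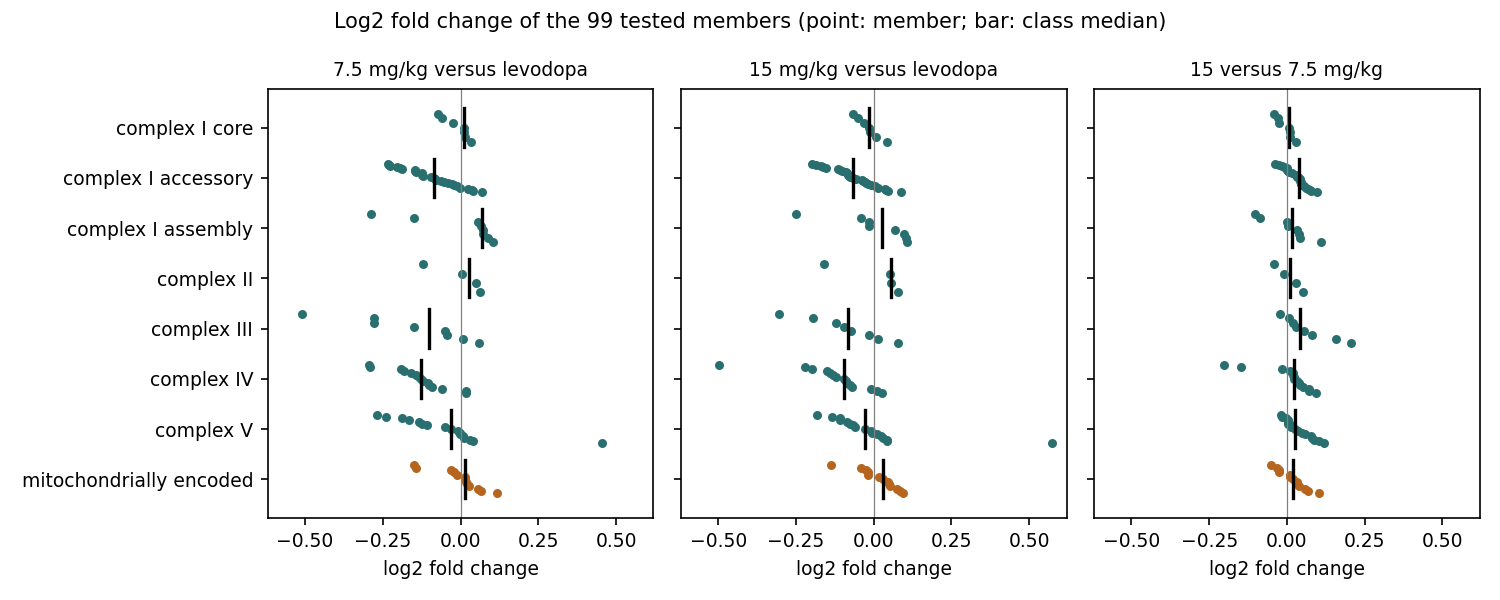
Log2 fold change of the 99 tested members in the 3 comparisons, by complex and genome; each point is 1 member and the bar the median of its class. The bars of complex IV lie at -0.13 and -0.095 against levodopa and at 0.023 between the doses.

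The complexes did not share the lean evenly. At 7.5 mg/kg the median log2 fold change was -0.13 for 15 members of complex IV (13 negative), -0.10 for 8 of complex III (6 negative), -0.086 for 27 accessory subunits of complex I (23 negative) and -0.030 for 17 of complex V (12 negative). It was 0.010 for 7 core subunits of complex I (3 negative), 0.069 for 8 complex I assembly factors (2 negative) and 0.026 for 4 members of complex II (1 negative). At 15 mg/kg the same classes, in the same order, had -0.095, -0.084, -0.066, -0.028, -0.014, 0.027 and 0.055. Without levodopa replicate 2 the medians at 7.5 mg/kg were -0.0073 for complex IV, -0.070 for III, -0.036 for I accessory, -0.023 for V, -0.033 for I core, 0.028 for I assembly and 0.0022 for II. At 15 mg/kg they were -0.015 for complex IV, -0.0021 for III, 0.010 for I accessory, 0.010 for V, -0.030 for I core, 0.048 for I assembly and 0.034 for II. The difference between classes was not tested.

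That library held the same split between classes. Levodopa replicate 2 was the highest of its arm for 14 of 15 members of complex IV, 20 of 27 accessory subunits of complex I, 10 of 17 members of complex V and 4 of 8 of complex III. For the core subunits of complex I it was the highest for 1 of 7 and for complex II for 1 of 4. Over all tested genes it was the highest for 33.0% and the lowest for 32.7%. Relative to each gene's mean over 25 libraries, the median deviation in this library was 0.42 (log2) for complex IV, 0.29 for I accessory, 0.28 for III, 0.26 for V, -0.060 for I core, -0.12 for II and -0.14 for I assembly. In the 7.5 mg/kg replicate 1, 6 of the 7 classes had the opposite sign, with -0.30 for IV, -0.21 for I accessory, -0.19 for III, -0.12 for V, 0.077 for I core and 0.029 for II, while I assembly was low in both libraries (-0.13). The mitochondrially encoded set was at 0.70 in the former and -0.72 in the latter. Levodopa replicate 1, at -0.76 for that set, had 0.14 for I core, 0.11 for I accessory and 0.11 for III. It had 0.044 for V, 0.038 for II, 0.018 for I assembly and -0.056 for IV. A low mitochondrial set thus did not always go with low nuclear subunits.

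**Figure D4:**
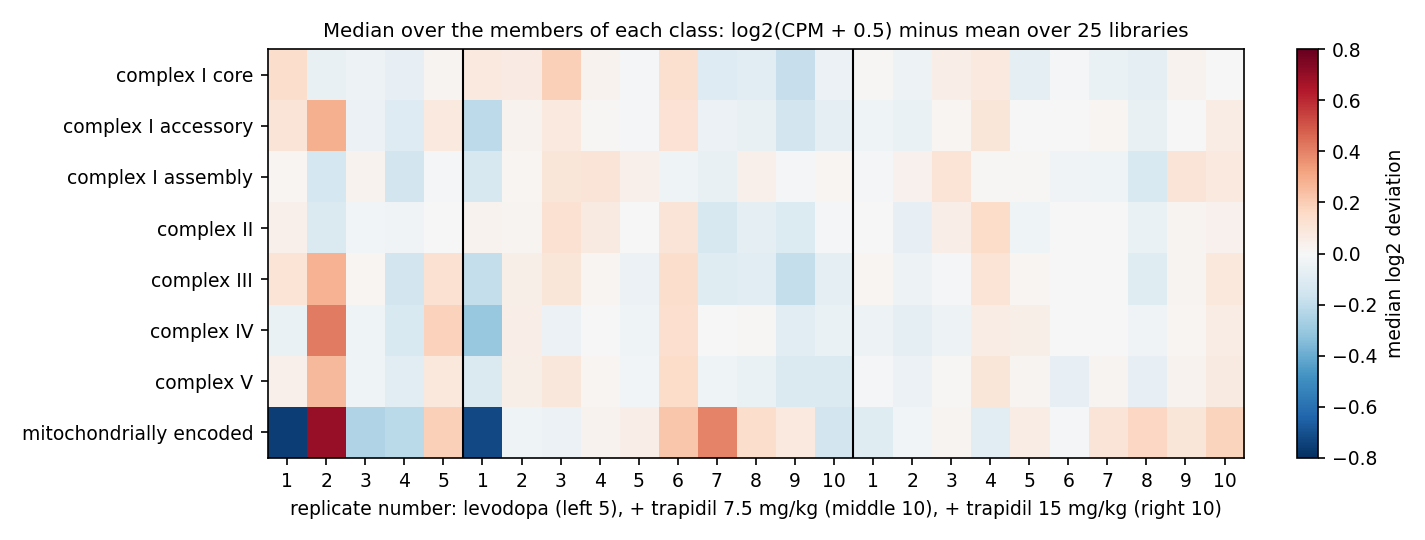
Median over the members of each class of log2(CPM + 0.5) minus the gene's mean over 25 libraries, for every library in replicate order within its arm. Levodopa replicate 2 is high for complex IV (0.42) and the mitochondrially encoded set (0.70) and low for complex II (-0.12), and the 7.5 mg/kg replicate 1 shows the opposite signs.

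Core subunits of complex I, which carry the flavin and the iron-sulfur clusters, were among the members closest between arms. Ndufs8, an iron-sulfur subunit, had 80.9, 75.7, 65.2, 66.7 and 63.9 CPM in levodopa replicates 1 to 5, 57.9, 65.6 and 81.3 CPM (lowest, median, highest) at 7.5 mg/kg and 62.9, 66.6 and 71.6 CPM at 15 mg/kg. It had the smallest p of its class at both doses, with log2 fold changes of -0.073 ± 0.066 and -0.066 ± 0.066 (SE; adjusted p = 0.672 and 0.620), or -0.044 and -0.037 without levodopa replicate 2. The ranges overlapped. Over the 7 core subunits the 95% intervals of the log2 fold change reached no lower than -0.24 and no higher than 0.17 at either dose.

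Accessory subunits, which surround that core, were lower at an unadjusted p below 0.05 for 5 of 27 at 7.5 mg/kg. That was 18.5%, against 16.3% of nuclear members and 6.64% of all tested genes. At 15 mg/kg 1 of 27 was lower (3.7%), against 5.81% of nuclear members and 11.2% of all tested genes. Ndufa11, a membrane subunit, had 84.1, 120.0, 72.4, 76.7 and 82.3 CPM with levodopa, 65.7, 73.7 and 87.2 CPM at 7.5 mg/kg and 67.0, 78.7 and 83.0 CPM at 15 mg/kg. Replicate 2 lay above all other libraries, and the remaining levodopa libraries overlapped both trapidil arms. Its log2 fold changes were -0.23 ± 0.086 and -0.18 ± 0.086 (SE; adjusted p = 0.336 and 0.230), and without levodopa replicate 2 they were -0.083 and -0.040. Ndufb7 had -0.23 ± 0.090 and Ndufv3 -0.20 ± 0.076 (SE) at 7.5 mg/kg, with adjusted p = 0.349 and 0.350, and -0.12 and -0.14 without levodopa replicate 2. Ndufb9 was below the levodopa mean in 10 of 10 libraries at each dose, though at -0.15 and -0.10 it was not called (adjusted p = 0.386 and 0.383), and without levodopa replicate 2 it had -0.040 and 0.0029.

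Assembly factors of complex I, which help build the complex without staying in it, had 6 of 8 fold changes above 0 at 7.5 mg/kg. The exceptions were Ndufaf2 at -0.15 and Ndufaf8 at -0.29 ± 0.13 (SE; adjusted p = 0.408). Ndufaf8 had 31.4, 58.2, 30.9, 28.5 and 39.1 CPM with levodopa, 18.2, 30.7 and 38.6 CPM at 7.5 mg/kg and 27.98, 31.95 and 36.9 CPM at 15 mg/kg. Its levodopa mean of 37.6 CPM lay above 10 of 10 libraries at 15 mg/kg but also above 3 of the levodopa libraries, and without levodopa replicate 2 its log2 fold changes were -0.073 and -0.036. Ndufaf4, with 0.11 ± 0.087 and 0.11 ± 0.087 (SE), had the highest value of the class at both doses.

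Complex II, succinate dehydrogenase, which also belongs to the tricarboxylic acid cycle, had steady levels. Sdha, the flavoprotein, had 294.6, 257.2, 285.7, 297.1 and 277.8 CPM with levodopa, 257.0, 283.7 and 318.5 CPM at 7.5 mg/kg and 278.6, 293.3 and 308.5 CPM at 15 mg/kg. Here replicate 2 was the lowest levodopa library, unlike for the accessory subunits of complex I. Sdhb, Sdhd and Sdha had log2 fold changes of 0.053, 0.079 and 0.057 at 15 mg/kg. Sdhc, a membrane anchor, differed in sign from them: 136.0, 141.9, 123.7, 115.3 and 116.8 CPM with levodopa, 106.8, 114.1 and 130.5 CPM at 7.5 mg/kg and 105.9, 112.2 and 131.5 CPM at 15 mg/kg. Its log2 fold change at 15 mg/kg was -0.16 ± 0.061 (SE; adjusted p = 0.142), with 9 of 10 libraries below the levodopa mean, and over the alternatives it ran from -0.19 to -0.12. A named pseudogene, Sdhc-ps1, exists in the RefSeq table, so its reads could be split.

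Complex III, which passes electrons from ubiquinol to cytochrome c, held the largest negative estimate at 7.5 mg/kg, that of Uqcr10, a small subunit like Uqcrq and Uqcrb. Uqcrq had 143.8, 194.4, 121.4, 108.9 and 137.3 CPM with levodopa, 96.4, 111.6 and 148.1 CPM at 7.5 mg/kg and 108.2, 124.8 and 140.0 CPM at 15 mg/kg. Its log2 fold changes were -0.28 ± 0.10 and -0.20 ± 0.10 (SE; adjusted p = 0.305 and 0.278), and the arms overlapped. Without levodopa replicate 2 they were -0.13 and -0.052. Uqcr10 had -0.51 ± 0.18 at 7.5 mg/kg and -0.30 ± 0.18 at 15 mg/kg (SE; adjusted p = 0.299 and 0.358) from 11.3, 24.4, 12.1, 8.97 and 11.95 CPM in the levodopa libraries. Without replicate 2 its values were -0.20 and 0.0052. Uqcrb, at -0.28 ± 0.11 (SE) for 7.5 mg/kg, had 79.8, 143.8, 91.05, 81.3 and 105.4 CPM in the levodopa libraries. Levodopa replicate 2 was thus its highest value of all 25 libraries. Its lowest was 48.0 CPM, in the 7.5 mg/kg replicate 1, in an arm whose median was 86.4 CPM. The names Uqcr10 and Uqcrb are also synonyms of pseudogenes in the RefSeq table, so both values are uncertain.

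Complex IV, cytochrome c oxidase, held the members with the smallest p at both doses, Cox7a2l2 and Cox7a2l. Cox7a2l, which helps join complexes III and IV into supercomplexes, had 118.5, 127.1, 98.4, 107.8 and 90.6 CPM with levodopa, 84.6, 95.4 and 105.1 CPM at 7.5 mg/kg and 88.3, 94.8 and 101.5 CPM at 15 mg/kg. All 20 trapidil libraries were below the levodopa mean of 108.5 ± 14.7 CPM (SD, n = 5), a mean that replicate 2 raised. Levodopa replicates 3 and 5, however, lay within the ranges of both trapidil arms. How many of all tested genes lay below that mean in every trapidil library was not counted. The log2 fold change at 15 mg/kg was -0.20 ± 0.063 (SE; 95% interval -0.33 to -0.070; adjusted p = 0.0856) and at 7.5 mg/kg -0.18 ± 0.063 (SE; adjusted p = 0.297). Over the alternatives the adjusted p at 15 mg/kg ran from 0.0338 without levodopa replicate 5 to 0.352 without levodopa replicate 2, where the log2 fold change was -0.13, and DESeq2 gave 0.0470.

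Cox7a2l2 had 112.6, 142.1, 102.9, 98.95 and 115.6 CPM with levodopa, 81.4, 94.1 and 109.8 CPM at 7.5 mg/kg and 90.6, 96.5 and 109.0 CPM at 15 mg/kg. Every trapidil library was below the levodopa mean, which replicate 2 raised, and levodopa replicates 3 and 4 lay inside both trapidil ranges. Its log2 fold change was -0.29 ± 0.078 at 7.5 mg/kg and -0.22 ± 0.078 at 15 mg/kg (SE; adjusted p = 0.154 and 0.118). Over the alternatives the adjusted p ran from 0.0682 to 0.637 at 7.5 mg/kg and from 0.0463 to 0.477 at 15 mg/kg. Its log2 fold changes without levodopa replicate 2 were -0.20 and -0.13. The name Cox7a2, a close relative, is absent from the count table, so reads of related copies may be counted here.

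**Figure D5:**
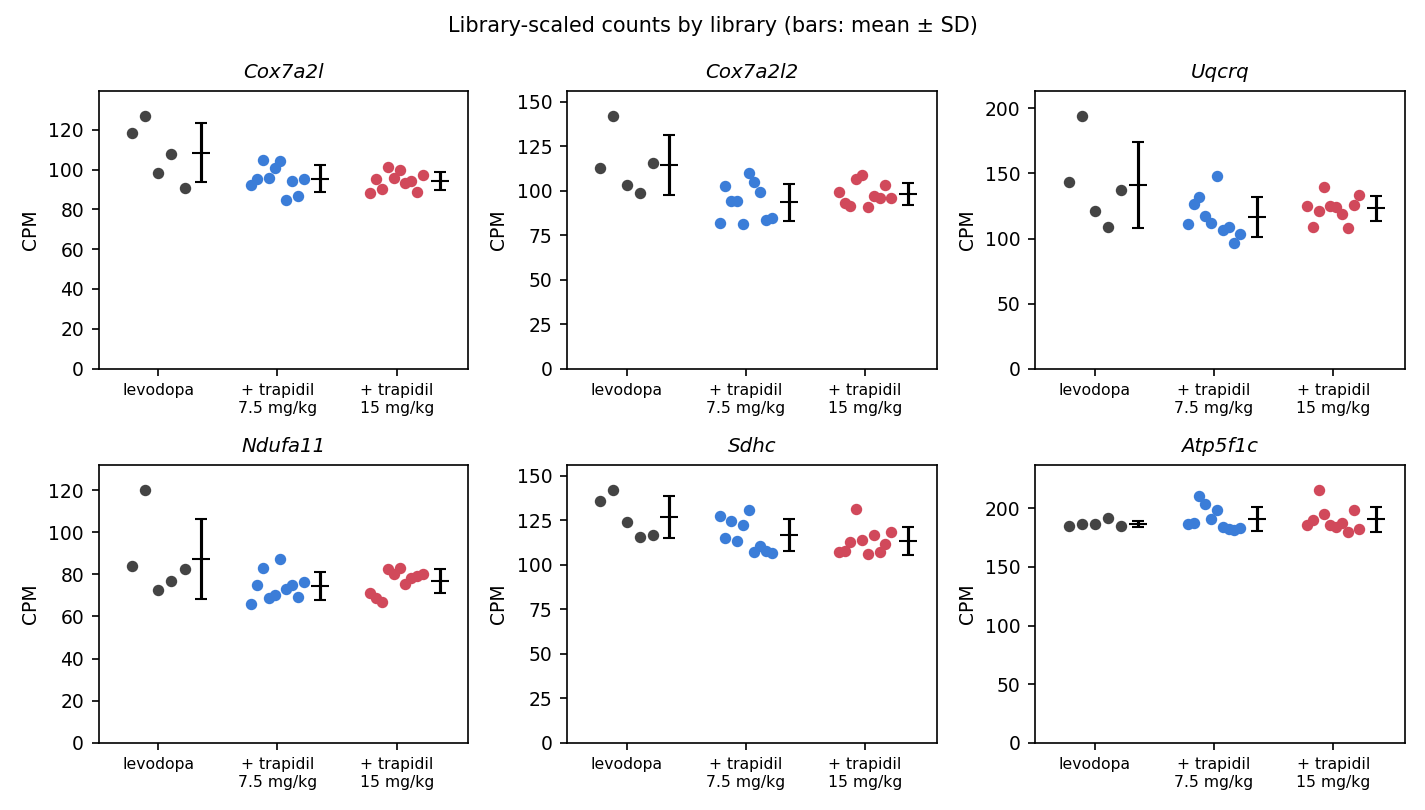
CPM of 6 members in each library, in replicate order within its arm, with bars the mean ± SD; the vertical axes start at 0. Cox7a2l and Cox7a2l2 lie below the levodopa mean in all 20 trapidil libraries while the arms overlap, and levodopa replicate 2 raises both means. Atp5f1c spans 184.8 to 191.6 CPM over the 5 levodopa libraries.

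Isoform pairs of complex IV held no called member. Cox4i1, the general isoform of the largest nuclear subunit, had log2 fold changes of -0.14 ± 0.066 and -0.12 ± 0.066 (SE; adjusted p = 0.404 and 0.311), from 504.4, 524.4, 416.0, 401.7 and 439.0 CPM with levodopa to medians of 408.8 and 418.7 CPM, and -0.088 and -0.065 without levodopa replicate 2. Cox4i2, its isoform of lung and low oxygen, had 1.93, 4.69, 1.73, 2.59 and 2.28 CPM with levodopa, 1.37, 2.27 and 2.83 CPM at 7.5 mg/kg and 1.40, 1.98 and 2.19 CPM at 15 mg/kg. Its value at 15 mg/kg, -0.50 ± 0.20 (SE; adjusted p = 0.163), and that at 7.5 mg/kg, -0.30 ± 0.20 (SE; adjusted p = 0.570), became -0.19 and 0.0083 without levodopa replicate 2. Cox6a1 had medians of 612.0, 503.7 and 520.0 CPM in the 3 arms, where the muscle isoform Cox6a2 had at most 0.802 CPM in any library. Cox6b1 had -0.093 and -0.070, and the testis isoform Cox6b2 0.016 and -0.13, with standard errors of 0.080 and 0.25. Cox8a had medians of 389.0, 373.4 and 384.0 CPM, against at most 0.723 CPM for the muscle isoform Cox8b. Ndufa4, now placed in complex IV, had -0.059 and 0.011, and its relative Ndufa4l2 -0.12 and -0.088 with standard errors of 0.18.

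ATP synthase held Atp5f1c, the nuclear member with the smallest SD of log2 CPM over all 25 libraries (0.067), and the 2 most abundant nuclear members by CPM. Within arms Atp5f1c had the smallest SD only with levodopa, while Ndufb10 had it at 7.5 mg/kg (0.064) and Ndufa10l1 at 15 mg/kg (0.029), both accessory subunits of complex I. Atp5f1c, the central stalk subunit gamma, had 185.0, 186.4, 186.3, 191.6 and 184.8 CPM with levodopa, an SD of 0.021 on the log2 scale, 181.9, 186.7 and 210.6 CPM at 7.5 mg/kg and 179.9, 186.7 and 215.6 CPM at 15 mg/kg. Its log2 fold changes were 0.032 ± 0.046 and 0.028 ± 0.046 (SE). Atp5f1b, the catalytic beta subunit, had 1489 ± 125.2 CPM (SD, n = 5), 1500 ± 104.8 CPM (SD, n = 10) and 1479 ± 58.7 CPM (SD, n = 10). For Atp5f1a, the alpha subunit, replicate 2 was the lowest levodopa library (527.1 CPM against 622.4 to 727.2 CPM), and the log2 fold changes were 0.039 and 0.042.

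Some smaller subunits of ATP synthase, unlike Atp5f1a, had their highest levodopa value in replicate 2. Others did not: Atp5mc3 had its lowest levodopa value there (185.7 CPM). Atp5f1e, the epsilon subunit, had 95.7, 189.3, 97.1, 87.1 and 126.7 CPM with levodopa, 75.0, 96.7 and 127.7 CPM at 7.5 mg/kg and 93.7, 104.5 and 116.9 CPM at 15 mg/kg. Its log2 fold changes were -0.27 ± 0.13 and -0.18 ± 0.13 (SE; adjusted p = 0.408 and 0.439), and replicate 2 lay above every other library. Without it they were -0.039 and 0.048. Atp5pd, of the peripheral stalk, had -0.12 ± 0.062 and -0.11 ± 0.062 (SE; adjusted p = 0.443 and 0.339). Without levodopa replicate 2 its value at 15 mg/kg was -0.046. Atp5if1, the natural inhibitor of the enzyme, had -0.16 and -0.086. It had 224.7 CPM in levodopa replicate 2, 132.0 to 176.3 CPM in the other levodopa libraries and 106.5 CPM in the 7.5 mg/kg replicate 1. The 3 genes Atp5mc1, Atp5mc2 and Atp5mc3, which encode the same mature c-ring protein, lay between -0.030 and 0.023 at both doses. Atp5md had the highest estimates of all members, 0.45 ± 0.45 and 0.57 ± 0.45 (SE), at no more than 1.36 CPM in any library, and was the member with the widest interval.

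Between the 2 trapidil doses, which share no libraries, no member was called. The count was 0 of 86 nuclear and 0 of 13 mitochondrially encoded members, where 0.0283% of all tested genes were called, and 0 had an unadjusted p below 0.05 in either direction (2.14% of all tested genes were lower at 15 mg/kg and 1.49% higher). The nuclear median was 0.029 with 20 of 86 negative (23.3%, against 51.2% of all tested genes), and the mitochondrial one 0.019 with 4 of 13 negative. Without the 7.5 mg/kg replicate 1 the nuclear median was 0.0088 with 33 of 86 negative (38.4%, against 50.3% of all genes tested in that fit), and the mitochondrial one -0.037 with 10 of 13 negative. The smallest p belonged to Ndufaf5, a complex I assembly factor, at -0.10 ± 0.058 (SE; p = 0.0867 from edgeR's test, adjusted p = 0.999). For 85 of 86 nuclear and 13 of 13 mitochondrially encoded members the 95% interval lay within a 1.5-fold change, Atp5md being the exception. No member had separate ranges in any of the 3 comparisons, where 0.0283% of tested genes lay wholly higher and 0.0636% wholly lower at 7.5 mg/kg than with levodopa, and 0.297% and 0.41% at 15 mg/kg.

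Other mitochondrial gene groups, tested in the same fit, held no called gene in any comparison, in either direction. These were 71 mitochondrial ribosomal proteins, 34 further assembly factors, 25 genes of mitochondrial DNA maintenance and transcription, 20 of protein import, 17 of the PGC-1 and nuclear respiratory factor group, 16 of the tricarboxylic acid cycle, 16 carriers, uncouplers and antioxidant enzymes and 8 electron carriers. Of all tested genes, 0.0283% were called at 7.5 mg/kg, 1.31% at 15 mg/kg and 0.0283% between the doses. With shares this low, 0 calls in lists of this size do not set these groups apart. The medians at 15 mg/kg ran from -0.035 (electron carriers) to 0.055 (tricarboxylic acid cycle), against 0.00068 over all genes. Mrps12, a protein of the small mitochondrial ribosomal subunit, had the smallest adjusted p, 0.0799, with 16.7 ± 2.10 CPM (SD, n = 5) for levodopa against 13.7 ± 1.22 CPM (SD, n = 10) for the higher dose, or a log2 fold change of -0.29 ± 0.088 (SE), and -0.30 without levodopa replicate 2 (adjusted p = 0.188). Tomm20, a receptor of protein import, had 0.18 ± 0.062 (SE; adjusted p = 0.116) and Cox15, an enzyme of heme a synthesis, 0.21 ± 0.078 (SE; adjusted p = 0.136) at that dose. At 7.5 mg/kg Mterf2, of the mitochondrial transcription termination factor family, had 0.36 ± 0.11 (SE; adjusted p = 0.207) and was above the levodopa mean in 10 of 10 libraries. Creb1, a transcription factor with targets in the PGC-1 pathway, had 0.34 ± 0.14 (SE; adjusted p = 0.355).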

How the data were processed

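Striatal polyadenylated RNA of 25 rats was measured, 1 library each. The authors deposited raw read counts per gene for 28909 names; per the submitters' processing notes FastQC, STAR and HTSeq were used with the Rnor_6.0 build. Versions, annotation and strand setting are not given in the sources used here, so antisense genes cannot be told apart, and 43 nuclear members with a named copy in RefSeq are uncertain. Libraries were grouped by their labels. In R 4.3.3, edgeR 4.0.16 was used: filterByExpr by arm left 14142 genes, TMM factors scaled the libraries, and quasi-likelihood F tests (two-sided) compared arms in a fit of all 25 libraries, adjusted by Benjamini-Hochberg over the 14142 genes, at a threshold of 0.05. CPM are counts scaled to a common total with TMM factors; SDs of log2 CPM used a pseudocount of 0.5. Median residual plus prior degrees of freedom were 27.6. No pair of libraries of an arm agreed within sampling noise (lowest chi-square per degree of freedom 4.83 over genes with at least 20 reads). No batch was given in the labels. The tests were checked on simulated data, with genes drawn independently and no aberrant library. That check does not cover libraries such as levodopa replicate 2 or genes that move together.

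Members and gene lists were chosen with earlier results of these data known. Genes named were the 13 mitochondrial ones, called members or else the smallest p of each class and comparison, isoform sets, the 3 nuclear members highest in CPM, those with the largest and smallest SD, and the called or smallest-p gene of each other list; Ndufb7, Ndufb9, Ndufv3, Ndufaf2 and Ndufaf4 were added after their values were seen. A member and a marker gene that these rules name are not reported here. Alternatives were RLE scaling, TMM without mitochondrially encoded genes, no filter, DESeq2 1.42.0, limma-voom (limma 3.58.1), 2 arms alone, libraries left out, a replicate block and an adjusted p of 0.10.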

Additional observations from a re-analysis of the deposited data

Results flagged for a closer look

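In 11 of 150 sets of values (7.33%), each 1 member or 1 summed measure in 1 arm, 1 library lay far from the rest of its arm by Dixon's test at 95%; chance alone gives about 1 in 20. Levodopa replicate 2 was the high library for 3 members: Ndufa11 with 120.0 CPM, Uqcr10 with 24.37 CPM and Cox4i2 with 4.688 CPM. The 7.5 mg/kg replicate 1 was the low library for 4: Uqcrb with 48.04 CPM, Ndufa4 with 175.0 CPM, Atp5if1 with 106.5 CPM and Ndufaf8 with 18.15 CPM. Atp5f1c was far from its arm in levodopa replicate 4 (191.6 CPM), where the other libraries lay within 184.8 to 186.4 CPM, and in the 15 mg/kg replicate 3 (215.6 CPM). The 15 mg/kg replicate 4 was high for Sdhc (131.5 CPM), and the 7.5 mg/kg replicate 6 for Cox8a (440.1 CPM). No mitochondrially encoded gene had such a library in any arm; in the levodopa arm replicates 1 and 2 lay at opposite ends of the range.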

How the results depend on the processing

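The count of called nuclear members at 15 mg/kg was 0; it was 1 with DESeq2 (Cox7a2l, -0.1995, DESeq2 adjusted p = 0.04695), which called 4.63% of all genes, and 1 at an adjusted p of 0.10, and 0 to 1 over leaving out each library (Cox7a2l2 without levodopa replicate 4, -0.2682, adjusted p = 0.04626, where 6.29% of all genes were called; Cox7a2l without levodopa replicate 5, -0.2553, adjusted p = 0.03382, where 1.41% were). The counts of the other comparisons, nuclear and mitochondrial, were 0 under every alternative run. Among the members that the naming rule ties to a comparison, signs turned for Cox4i2 at 7.5 mg/kg (-0.4126 to 0.00825 over libraries left out), Mt-co1 at 15 mg/kg (-0.005311 to 0.2499) and Uqcr10 at 15 mg/kg (-0.424 to 0.005167, and 0.005345 without both levodopa replicate 2 and replicate 1 of the 7.5 mg/kg arm); the cause was not tested. Over all tested members, leaving out levodopa replicate 2 turned the sign of 20 of 86 nuclear and 5 of 13 mitochondrially encoded ones at 7.5 mg/kg and of 35 of 86 and 5 of 13 at 15 mg/kg, and leaving out levodopa replicate 1 that of 10 and 7 at 7.5 mg/kg and 12 and 8 at 15 mg/kg. The nuclear median at 15 mg/kg turned from -0.054 to 0.0078 without levodopa replicate 2. Subunits alone, without assembly factors, gave a nuclear share of 1.122% in the 15 mg/kg arm against 1.166%, by the smaller set. No pairing of animals by replicate number was given in the labels. Same-numbered libraries correlated above 0.1 in 1 of 5, 3 of 5 and 4 of 10 pairs (levodopa with 7.5, levodopa with 15, and 7.5 with 15 mg/kg). Differently numbered libraries were not compared, so these values cannot decide whether the numbers pair animals. With the replicate block 0 members were called, and the nuclear medians were -0.077 and -0.039 at 7.5 and 15 mg/kg. With 5 levodopa libraries and the spread of replicates 1 and 2, standard errors of the mitochondrially encoded genes limit what could be detected there.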
